A study of Mus musculus with 12 samples.

Results

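Non-clustered protocadherins are cadherin-superfamily adhesion proteins that each come from a gene of their own, unlike the alpha, beta and gamma protocadherins, which share large gene clusters. They mediate mostly homophilic contacts between neurons, and several of them act in axon growth, circuit wiring and synapse formation. SLM2 (gene Khdrbs3) is an RNA-binding splicing regulator of the STAR family that binds U- and A-rich elements, among them UWAA, where W is A or U. In enhanced crosslinking and immunoprecipitation (eCLIP), RNA crosslinked to a protein by ultraviolet light is recovered with an antibody and sequenced, and a size-matched input library of the same lysate gives the background.

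The 7 genes described here are Pcdh7, Pcdh9 and Pcdh11x, members of the delta-1 group, Pcdh10, Pcdh17 and Pcdh19, members of the delta-2 group, and Pcdh15, a component of the tip link of sensory hair cells. SLM2 peaks were counted for a gene when the peak centre lay within its annotated span, on its strand. The group was selected on its whole-brain peak count, because Pcdh9 is among the genes with the most peaks, so these counts and the enrichment that put peaks in the list are a description with no test. Of 2057 whole-brain peaks, 73 lay in the 7 genes, which is 3.55% (exact Clopper-Pearson 95% interval 2.79 to 4.44%). Of 178 hippocampal peaks, 0 did, which allows a share of up to 1.69%. These intervals cover counting error only, and peaks of 1 gene are not independent.

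The peaks came from wild-type mice aged 30 days. Whole-brain peaks were called from 2 eCLIP and 2 input libraries, and hippocampal peaks from 2 eCLIP and 2 input libraries. Each tissue had 1 merged list of peaks, so no value has a spread between replicates. A peak is a region enriched over input and kept for its reproducibility between replicates. Libraries of hippocampus from Slm2 KO mice (2 eCLIP and 2 input) were not analysed here. Each lysate was made from a single whole brain or from several pooled hippocampi. Read depth is not in the peak lists and hippocampal libraries were amplified with more PCR cycles, so tissue and library yield cannot be told apart. RNA level was not measured in these lists, so absence of a peak cannot be told apart from low expression of the gene.

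The peaks were very unequally spread over the 7 genes. Pcdh9, which encodes a homophilic adhesion protein of neurons, held 64 peaks, and Pcdh7 held 8. Pcdh15 held 1. Pcdh10, Pcdh11x, Pcdh17 and Pcdh19 held 0. Peaks thus lay in 3 of 7 members, or in 2 of 7 without the Pcdh15 peak, which lies in repeated sequence. Pcdh9, chosen for its peak count, is among them, so the choice set part of this share. Over 21951 protein-coding genes, 1.92% held at least 1 whole-brain peak. No member held a hippocampal peak, where 0.378% of protein-coding genes did. By number of whole-brain peaks Pcdh9 ranked between Cadm2 with 73 and Nrg3 with 56, and it carried 87.7% of the members' peaks. Of the 24 genes with at least 20 whole-brain peaks, 15 also held hippocampal peaks and 9, Pcdh9 among them, did not. Cadm2 had 1 hippocampal peak and Nrg3 had 5.

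Gene length did not order the members. Pcdh9 spans 877 kb on the minus strand of chromosome 14 (chr14:93013410-93890679, GRCm38/mm10), which gives 7.30 peaks per 100 kb. Pcdh7 spans 415 kb (chr5:57717967-58133230, plus strand) and had 1.93 peaks per 100 kb. Pcdh15, the longest member at 1550 kb (chr10:73099342-74649737, plus strand), had 0.0645. Pcdh11x, at 620 kb, had no peak although it is longer than Pcdh7. The short members Pcdh10 (57.2 kb), Pcdh17 (95.4 kb) and Pcdh19 (106 kb) had none either. The density of UWAA in the whole gene did not follow the peaks. It was 1.90 starts per 100 positions in Pcdh9 and 1.81 in Pcdh7, but 1.98 in Pcdh11x, 1.97 in Pcdh17 and 2.10 in Pcdh10, which had no peak, and 1.49 in Pcdh15 and 1.55 in Pcdh19.

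**Figure D1:**
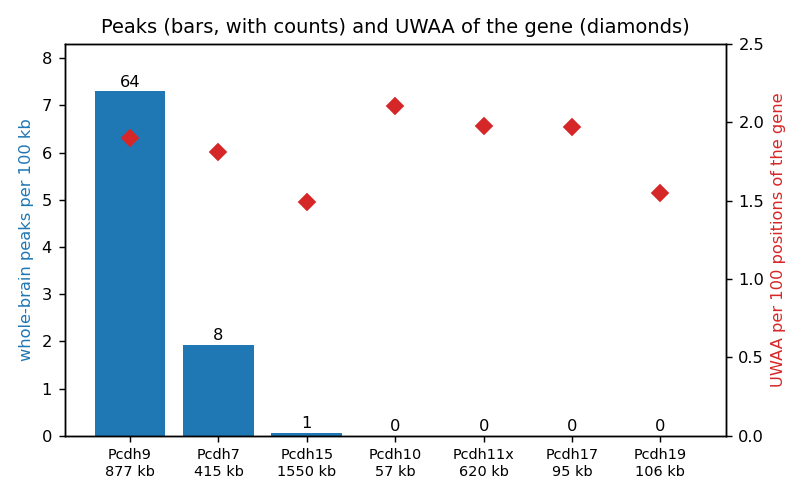
Whole-brain peaks per 100 kb (bars, left axis, with the peak count on each bar) and UWAA starts per 100 positions of the gene (red diamonds, right axis) for the 7 genes, with their lengths. Pcdh9 has 7.30 peaks per 100 kb and Pcdh7 has 1.93, while Pcdh10, Pcdh11x and Pcdh17 have as many UWAA starts per length as Pcdh9 or more and no peak.

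The sequences below are those of the most enriched Pcdh9 peaks and of a group of 4 peaks close together, followed by a peak rich in UWAA, shown because they carry the description of Pcdh9 that follows. Peak sequences are given 5′ to 3′ on the gene's strand as genomic DNA (T for U), and UWAA (UUAA or UAAA) is in capitals, so that UUAAA counts as 2 overlapping starts. The group of 4 was chosen after its values were seen. The peak rich in UWAA, chr14:93871150-93871234, was chosen for its 9 starts within 50 nt of the centre, and 60% of its bases are repeat-masked.
Pcdh9 chr14:93557181-93557254: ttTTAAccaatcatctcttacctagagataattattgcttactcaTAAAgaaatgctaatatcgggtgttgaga
Pcdh9 chr14:93557509-93557574: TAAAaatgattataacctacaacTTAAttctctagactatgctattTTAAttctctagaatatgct
Pcdh9 chr14:93557273-93557408: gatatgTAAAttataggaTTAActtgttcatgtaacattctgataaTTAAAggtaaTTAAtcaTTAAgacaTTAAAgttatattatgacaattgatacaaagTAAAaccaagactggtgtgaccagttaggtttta
Pcdh9 chr14:93557044-93557110: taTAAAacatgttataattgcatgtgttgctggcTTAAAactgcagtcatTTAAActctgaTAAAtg
Pcdh9 chr14:93468985-93469108: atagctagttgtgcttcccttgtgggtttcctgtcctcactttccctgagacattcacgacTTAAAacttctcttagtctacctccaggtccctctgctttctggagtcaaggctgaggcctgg
Pcdh9 chr14:93258175-93258241: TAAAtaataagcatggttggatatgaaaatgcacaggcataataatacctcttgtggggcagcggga
Pcdh9 chr14:93146374-93146494: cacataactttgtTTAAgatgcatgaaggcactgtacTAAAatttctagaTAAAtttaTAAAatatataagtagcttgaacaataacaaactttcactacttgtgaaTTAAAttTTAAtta
Pcdh9 chr14:93871150-93871234: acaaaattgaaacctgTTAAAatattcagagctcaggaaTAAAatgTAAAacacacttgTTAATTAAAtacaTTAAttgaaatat

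All 64 Pcdh9 peaks were intronic, and they covered the 3 long introns. By the reference transcript Pcdh9-208, with 4 introns, intron 2 (325 kb) held 32 peaks, intron 3 (234 kb) held 12 and intron 4 (311 kb) held 20. This is 9.84, 5.14 and 6.44 peaks per 100 kb. Intron 1 (1.23 kb) held 0. Median log2 enrichment over input was 2.28 in intron 2, 2.66 in intron 3 and 2.51 in intron 4. The 3 highest Pcdh9 peaks lay in intron 3.

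Along the gene the first peak lay 5.93 kb from the 5′ end and the last 744 kb. The last 133 kb of the gene, which end in the final exon, held none. The longest peak-free stretch between peaks was 83.0 kb, from 422 to 505 kb, and the next, of 71.3 kb, adjoined it from 505 to 576 kb with 1 peak between. The third longest was 42.0 kb, from 76.7 to 119 kb. Over all gaps between neighbouring peaks the median was 6.96 kb and the smallest 1 nt. When peaks within 100 nt were joined, 64 peaks became 51 sites. Within 500 nt, 26 of the peaks fell into 11 groups of 2 to 4.

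The group with the most peaks was also the most enriched. Its 4 peaks (chr14:93557044-93557574) spanned 531 nt, had log2 enrichments of 2.72, 3.44, 2.96 and 3.38 from low to high coordinate, and held 6, 2, 8 and 5 UWAA starts within 50 nt of their centres. They lay 2934 to 3399 nt into intron 3, counted from the end of the 102-nt exon at chr14:93560476-93560577. That coding exon is present in 3 of the 5 basic transcripts of Pcdh9. No Pcdh9 peak lay within 500 nt of an exon (0 of 64, which allows a share of up to 4.69%), whereas 185 of 1984 whole-brain peaks outside the 7 genes did (9.32%). The nearest was 819 nt past an annotated exon end, and the median distance was 50.3 kb, against 26.0 kb for intronic peaks outside the 7 genes. Peaks in long introns are by construction far from exons, and these distances were not set against intron length.

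**Figure D2:**
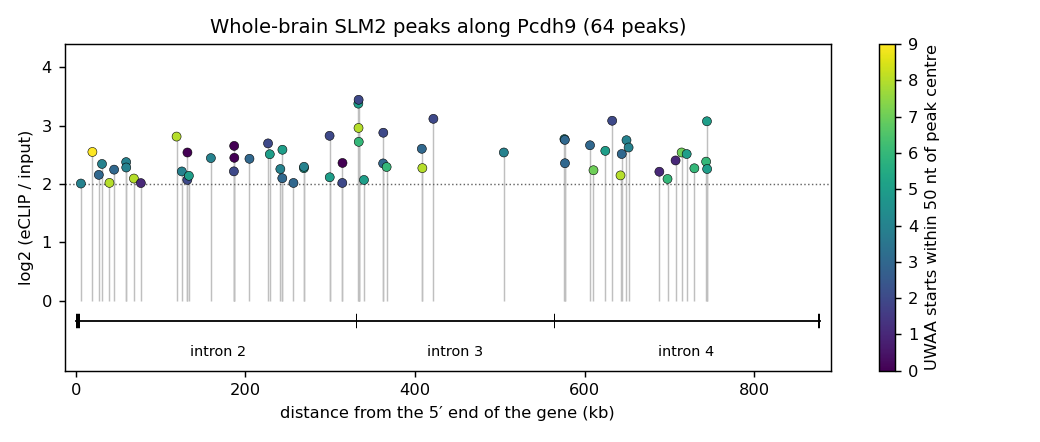
Whole-brain SLM2 peaks along Pcdh9. Each point is 1 of 64 peaks, with its distance from the 5′ end of the gene (kb, x axis), its log2 enrichment over input (y axis) and the number of UWAA starts within 50 nt of its centre (colour); thick bars on the line below are exons of Pcdh9-208, and the dotted line is the authors' limit of 2. The 4 close peaks near 333 kb reach 3.44, and no peak lies in the last 133 kb.

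Enrichment of the Pcdh9 peaks was moderate within the list. Log2 enrichment ranged from 2.01 to 3.44 with a median of 2.38, against 2.56 for the whole-brain peaks outside the 7 genes. Of the Pcdh9 peaks 10 of 64 were under 2.1, just inside the limit of 2, against 194 of 1984 outside. Values of regions just outside the limit are not in the list. Peaks of at least 3 made up 5 of 64 (7.81%, exact interval 2.59 to 17.3%) against 456 of 1984 (23.0%, 21.1 to 24.9%). The median −log10 p of Pcdh9 was 4.82, against 4.30 outside, with a highest value of 9.96 at chr14:93591410-93591508. Median peak length was 90 nt, with a range of 32 to 350 nt, against 106 nt outside. Fold change and p both entered the calling of the list, so these are descriptions.

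**Figure D3:**
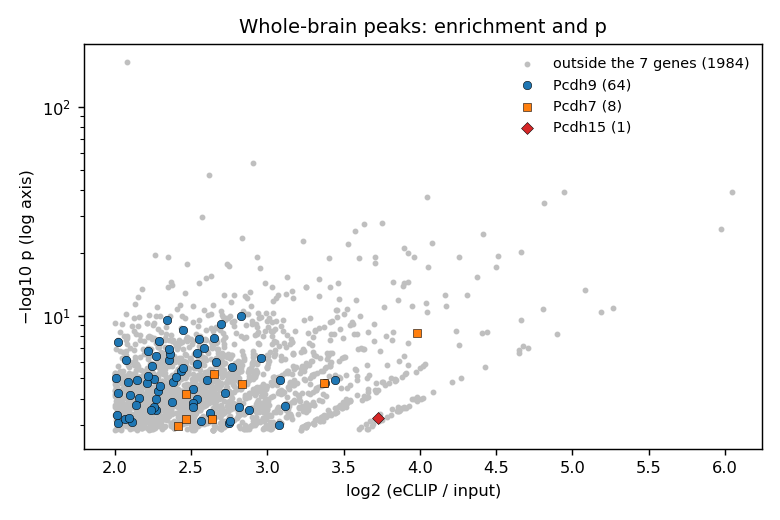
Log2 enrichment over input (x axis) and −log10 p (y axis, logarithmic) of whole-brain peaks, with Pcdh9 in blue circles, Pcdh7 in orange squares, Pcdh15 in a red diamond and the 1984 peaks outside the 7 genes in grey. The Pcdh9 peaks lie between log2 values of 2.01 and 3.44, and the highest Pcdh7 peak lies at 3.98.

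UWAA, which the choice of genes did not use, was denser at Pcdh9 peaks than beside them. Windows within 50 nt of the peak centre held 4.13 ± 2.26 UWAA starts per 100 positions (mean ± SD, n = 64 peaks), and flanking windows centred 500 nt to either side held 2.38 ± 1.38, a difference of 1.75. The centre held more in 46 of 64 peaks, fewer in 13 and as many in 5. That is 71.9% (59.2 to 82.4%), against 66.7% over all 2057 whole-brain peaks. For peaks outside the 7 genes the centre held 3.57 ± 2.66 and the flanks 1.77 ± 1.39, a difference of 1.80. Pcdh9 peaks therefore had more UWAA at the centre and in the flanks, with a difference of like size, and no test between the sets was made, since peaks of 1 gene share a transcript. Counting peaks with any UWAA in the central window gave 60 of 64 for Pcdh9 (93.8%, 84.8 to 98.3%), against 83.6% of all whole-brain peaks. Windows with 4 or more starts made up 16.9% of all windows of the same length in the Pcdh9 gene, and 37 of 64 peaks (57.8%, 44.8 to 70.1%) had such a centre, against 48.6% of all whole-brain peaks. Among the 5 Pcdh9 peaks with a log2 enrichment of at least 3 the difference between centre and flanks was 0.41. Its counting interval, which covers the centre count only, was -0.98 to 2.39 and includes 0.

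UWAA stands for UAAA and UUAA, and UUAA is its own reverse complement, so the forms were also counted apart, as a choice made after the values of UWAA were seen. At Pcdh9 peaks UAAA had 2.42 starts per 100 positions at the centre and 1.31 in the flanks, and the centre held more in 44 of 64 peaks. UUAA had 1.71 at the centre and 1.07 in the flanks. UUUA, the reverse complement of UAAA, had 1.51 at the centre and 1.21 in the flanks, with more at the centre in 32 of 64 peaks. The differences were thus 1.12 for UAAA and 0.30 for UUUA in Pcdh9, and 1.17 and 0.17 in the peaks outside the 7 genes. Base composition changed little, with 36.0% A and 32.8% U at the centre and 34.0% A and 33.3% U in the flanks. The longer element UUWAAAA lay within 50 nt of the centre in 14 of 64 Pcdh9 peaks (21.9%, 12.5 to 34.0%), and in 18.8% of the peaks outside the 7 genes. Along the sequence the UWAA density of Pcdh9 was highest 5′ of the centre, at 5.88 per 100 positions in the 25-nt bin centred 62.5 nt upstream, and it lay between 1.50 and 3.13 beyond 300 nt. The peaks outside the 7 genes were highest at 37.5 nt upstream, at 4.20.

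**Figure D4:**
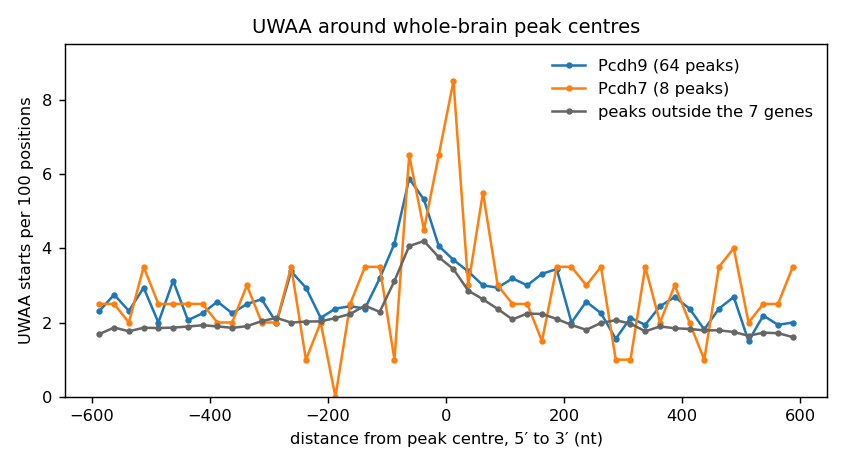
UWAA starts per 100 positions (y axis) in 25-nt bins by distance from the peak centre (x axis, nt, 5′ to 3′), for Pcdh9 (64 peaks), Pcdh7 (8 peaks) and whole-brain peaks outside the 7 genes (1984). Pcdh9 reaches 5.88 upstream of the centre and Pcdh7, from few peaks, reaches 8.50.

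Peaks without UWAA at the centre were few. They were 4 of 64 in Pcdh9, at chr14:93576164-93576317, chr14:93703759-93703885, chr14:93703887-93704062 and chr14:93759029-93759175, whose log2 enrichments of 2.36, 2.45, 2.65 and 2.54 were in the middle of the Pcdh9 range. The last is entirely repeat-masked, and its central 32 nt occurs 11 times in the genome. More than 50% of the bases were repeat-masked in 8 Pcdh9 peaks (12.5%), against 14.2% outside the 7 genes. In these 8 peaks the UWAA difference was 0.89, and in the other 56 it was 1.88. Another peak, chr14:93202444-93202670, lies on the same strand inside Gm17922, a processed pseudogene. All 203 of its 25-mers match that gene because the bases are the same, and 35 of them are also in Npm1. Its central 32 nt occurs 1 time in the genome. Reads there cannot be assigned to Pcdh9 rather than to the pseudogene, and the peak is reported as uncertain. It and the fully repeat-masked peak are shown because their assignment to Pcdh9 is in doubt. Each holds 2 UWAA starts within its own bases, in 227 and 147 nt. Within 50 nt of the centre they hold 1 and 0, against a median of 4 over the Pcdh9 peaks. The most enriched Pcdh9 peak, chr14:93557181-93557254, also holds 2 within its own bases, but in 74 nt, and some Pcdh9 peaks hold fewer.
Pcdh9 chr14:93202444-93202670: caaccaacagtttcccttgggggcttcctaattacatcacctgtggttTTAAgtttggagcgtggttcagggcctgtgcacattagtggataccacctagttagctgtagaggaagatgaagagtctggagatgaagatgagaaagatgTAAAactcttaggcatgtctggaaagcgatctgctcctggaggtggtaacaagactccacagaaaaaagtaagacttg
Pcdh9 chr14:93759029-93759175: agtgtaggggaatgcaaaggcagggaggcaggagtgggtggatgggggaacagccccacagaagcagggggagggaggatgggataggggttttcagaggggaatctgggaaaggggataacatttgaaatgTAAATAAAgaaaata

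Pcdh7, an adhesion protein also known from heart and brain, had 8 peaks, all intronic, and its peaks are shown here in part because 1 is the most enriched of all members' and another lies beside an exon.
Pcdh7 chr5:57952512-57952688: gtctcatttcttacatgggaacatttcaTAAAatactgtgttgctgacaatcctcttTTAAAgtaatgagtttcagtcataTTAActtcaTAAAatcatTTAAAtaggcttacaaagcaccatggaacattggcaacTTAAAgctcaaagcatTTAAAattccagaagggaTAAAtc
Pcdh7 chr5:57913520-57913649: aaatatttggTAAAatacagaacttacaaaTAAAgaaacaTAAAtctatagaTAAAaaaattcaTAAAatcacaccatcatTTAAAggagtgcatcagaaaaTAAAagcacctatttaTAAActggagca
Pcdh7 chr5:57940265-57940337: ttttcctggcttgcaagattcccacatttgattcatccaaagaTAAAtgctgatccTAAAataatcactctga
Pcdh7 chr5:57768387-57768462: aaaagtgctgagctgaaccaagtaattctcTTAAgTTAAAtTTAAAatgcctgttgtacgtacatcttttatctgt
By transcript Pcdh7-203, 2 peaks lay in the first intron (191 kb) and 6 in the second (216 kb). Log2 enrichment was 2.42 and 2.83 in the first intron. In the second it was 2.46, 3.37, 3.98, 2.64, 2.65 and 2.47 from the 5′ side on. The highest, at chr5:57952512-57952688 and 177 nt long, had a −log10 p of 8.28 and held 12 UWAA starts.

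The Pcdh7 peak at chr5:57913520-57913649 was the only member peak within 500 nt of an exon. Its centre lay 137 nt past the exon end used by 1 of the 7 annotated transcripts and 213 nt past the end used by 3. It held 9 UWAA starts in 130 nt. A pair of peaks, at chr5:57984438-57984542 and chr5:57984689-57984778, also lay inside Gm37720, an unclassified gene on the same strand, so their reads cannot be assigned to 1 transcript. No Pcdh7 peak was more than 50% repeat-masked. UWAA was denser at the centre than in the flanks in 8 of 8 Pcdh7 peaks, with 5.61 ± 1.89 against 2.87 ± 1.28 starts per 100 positions (mean ± SD, n = 8 peaks). That is 100% (63.1 to 100%), against 66.7% over all 2057 whole-brain peaks. The pair inside Gm37720 is among the 8.

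**Figure D5:**
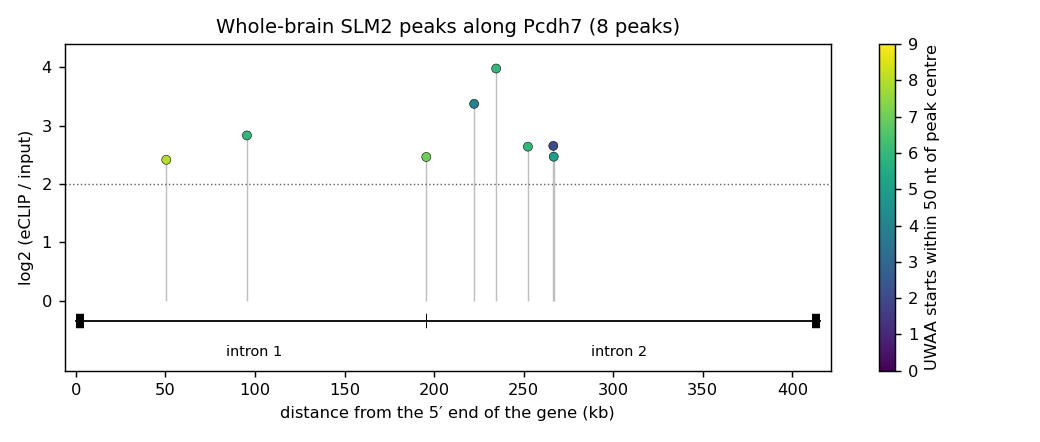
Whole-brain SLM2 peaks along Pcdh7. Each point is 1 of 8 peaks, with its distance from the 5′ end of the gene (kb, x axis), its log2 enrichment over input (y axis) and its UWAA starts within 50 nt of the centre (colour); thick bars are exons of Pcdh7-203 and the dotted line is the limit of 2. The peak at 196 kb lies next to the middle exon, and the peak at 235 kb is the highest at 3.98.

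The Pcdh15 peak does not resemble the others. It is 69 nt long, at chr10:73390452-73390520, with a log2 enrichment of 3.72 and a −log10 p of 3.25, the second highest enrichment of the members' peaks.
Pcdh15 chr10:73390452-73390520: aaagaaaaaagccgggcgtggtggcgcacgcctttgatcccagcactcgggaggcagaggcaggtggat
It is fully repeat-masked, its central 32 nt occurs 248 times in the genome, and its 25-mers are shared with transcripts of 323 other genes. It held no UWAA within its own bases, and 2 starts within 50 nt of its centre. It lies 431 kb before the start of the first of 29 protein-coding Pcdh15 transcripts, and the 3 transcripts over it are annotated as retained introns. The peak is therefore uncertain as a peak of Pcdh15. With it and the repeated Pcdh9 peak left out, the 7 genes hold 71 peaks. That count still includes the Pcdh9 peak inside Gm17922 and the pair of Pcdh7 peaks inside Gm37720.

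Among genes of related function, peaks lay in Cdh10, Ctnna2 and Ctnnd2. Of 5 other non-clustered protocadherins (Pcdh1, Pcdh8, Pcdh12, Pcdh18 and Pcdh20) and of 56 clustered protocadherin genes, 0 held a peak in either tissue. Of 18 classical and related cadherins, only Cdh10 did, with 3 whole-brain peaks and a highest log2 enrichment of 3.84. Of 12 genes of the Fat, Dachsous, Celsr and calsyntenin families and of 9 tip-link partners of Pcdh15, 0 did. Of 13 catenins and subunits of the WAVE complex, through which cadherins and delta-2 protocadherins reach actin, Ctnna2 (alpha-N-catenin) held 7 whole-brain peaks and Ctnnd2 (delta-catenin) held 13, with 1 more in hippocampus. Against the 1.92% of protein-coding genes with a whole-brain peak, lists of this size would hold a gene with a peak rarely or about once, so the counts of 0 are no result about these lists.

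By the tetramers within 50 nt of whole-brain peak centres, the genes most like Pcdh9 among the 23 others with at least 20 peaks included Cadm2 (Pearson r = 0.96), which encodes a cell adhesion molecule of the immunoglobulin superfamily, and Ptprd (0.95), which encodes a receptor tyrosine phosphatase of synapses. Across tetramers the median r over the 23 genes was 0.93. The tetramers are not independent, AU content is shared by most of the genes, and these values are a description.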

How the data were processed

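SLM2 eCLIP peaks of mouse whole brain and hippocampus were taken from 1 merged list per tissue. Per the labels, the authors trimmed reads with cutadapt 3.4, aligned them to mm10 with STAR 2.7.9 and removed duplicates with UMI-tools 1.1.1. The authors called peaks with CLIPper against the size-matched input and kept peaks reproducible between replicates. The deposited log2 values are the log2 fold enrichment of eCLIP over input, the deposited −log10 values are p-values of that enrichment, and the deposited score is the −log10 of the irreproducible discovery rate. All peaks had a log2 value and a score of at least 2. The members and gene lists were chosen with earlier results of these data known. Peaks were assigned by centre and strand to GENCODE vM21 genes, and sequence was read from GRCm38 with pysam 0.24.0 in Python 3.11.15. UWAA starts were counted in windows within 50 nt of the centre and in flanks centred 500 nt away. Repeat masking is the lower case of the reference genome. Copies of the central 32 nt were counted on both strands, and 25-mers were matched to annotated transcripts. Intervals are exact Clopper-Pearson 95%, and a count of 0 was given the limit of 3 counts. For a UWAA difference the interval is that of the centre count, with the flank value held fixed. It treats overlapping starts as independent, so it does not cover the full error of the difference. The motif count was tested on simulated data. Named genes are the 7 members, list genes with a peak and the 3 genes most like Pcdh9, of which 1 is not reported here. Log2 fold, −log10 p, overlap, masking, adaptor, window and flank choices were varied.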

Additional observations from a re-analysis of the deposited data

How the results depend on the processing

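Counts and UWAA differences were recomputed with peaks counted by any overlap, with joined peaks, with stricter limits, with adaptor matches left out and with other windows and flanks. Leaving out peaks more than 50% repeat-masked, or with more than 1 genome copy of the centre, was chosen after seeing the data. At a log2 enrichment of at least 3, Pcdh9 kept 5 peaks of 64 and the members 8 of 73, and the UWAA difference fell to 0.41 starts per 100 positions in Pcdh9 (5 peaks, counting interval -0.98 to 2.39) and 0.89 in the members (8 peaks, -0.29 to 2.44). The members' share of peaks mostly repeat-masked was 12.3% at over 50% of the bases, 43.8% at over 20% and 4.11% at over 80%. No other alternative moved a count by over 1.5 times or a UWAA difference beyond the counting interval of the main value, and the member count in hippocampus was 0 under each. The overlap of hippocampal with whole-brain member peaks gave no value, since no member had a hippocampal peak. No paired analysis was possible because each tissue had 1 merged list, and for the same reason no replicate could be left out. Read depth is not in the peak lists, so the absence of hippocampal peaks in the members cannot be told apart from fewer sequenced fragments.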

Other observations

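The most frequent 7-mer in the Pcdh9 peaks, chosen after its values were seen, was AUAAAAU, which lay in 16 of 64 (25.0%) and in 237 of the 1984 whole-brain peaks outside the 7 genes (11.9%). It lay in 4 of the 8 Pcdh7 peaks. UUUAAAA lay in 11 Pcdh9 peaks (17.2%) and in 13.6% of the peaks outside, whereas UUAAAAA, the other form of UUWAAAA, lay in 6 (9.38%) and in 12.4%. The longest stretch shared by any pair of member peaks was 15 nt, between the Pcdh9 peaks that start at 93851039 and 93176181 on chromosome 14.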
